A study of Mus musculus with 18 samples.

Results

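Cultured mouse macrophages were compared with and without 2 hours of lipopolysaccharide (LPS), the cell wall component of Gram-negative bacteria, by sequencing of total RNA. The comparison takes 6 of the 18 libraries of the study: 3 from unstimulated B6 macrophages (numbered 1, 4 and 7 in the deposited table) and 3 from B6 macrophages given LPS (numbered 2, 5 and 8). The libraries were chosen by their labels, not by any measured value. B6 stands for the inbred strain C57BL/6J, with no altered gene. The cells were bone marrow-derived macrophages (BMDM), grown for 7 days in medium holding 30% L929 cell supernatant, which supplies the growth factor M-CSF, and 20% serum, so that both groups shared these conditions. The other 12 libraries were B6 cells given LPS with 5z7, and the same 3 treatments in cells of mice whose kinase gene Ripk1 carries the T169A change. The labels give neither the dose of LPS nor the age or sex of the mice, and do not state that replicates were separate mice or dishes. P-values of the gene tests therefore describe the spread among libraries within groups, estimated over all 18 libraries, and this spread may be technical.

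LPS is bound by CD14 and MD-2 and activates Toll-like receptor 4 (TLR4) at the surface of macrophages. Through the adaptor MyD88 the receptor activates the kinase TAK1, the IKK complex, NF-kB and the MAP kinases, which switch on cytokine genes within minutes to hours. Through the adaptor TRIF it activates the factor IRF3 and interferon beta, which acts back on the cells through its own receptor and STAT factors to raise a later set of antiviral genes. The response also includes inhibitors of these same pathways and proteins that destroy cytokine mRNA.

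The 6 libraries held 14.6 to 30.4 M counts. Values are counts per M counts (CPM), scaled with TMM, a method that corrects for the share of counts taken by strongly changed genes, and are listed for libraries 1, 4 and 7 and then 2, 5 and 8, or as mean ± SD of 3 libraries. Libraries 7 and 8 stood apart within their groups: library 7 differed from 1 and 4 by 81.3 and 101 times counting noise (chi-square over degrees of freedom), against 5.92 between 1 and 4, and library 8 from 2 and 5 by 34.7 and 22.6, against 5.86. In library 7, short genes (at most 1000 exon bases, 141 genes) lay 0.81 above the mean of libraries 1 and 4 on the log2 scale and long genes (at least 8000 bases, 1716 genes) 0.61 below (median -0.61), and in library 8 these medians were 0.30 and -0.21. All 8 macrophage markers examined were present, summing to 31753 to 41991 CPM in unstimulated and 36646 to 43805 CPM in LPS libraries. Most of each sum was Lyz2 alone, and of the 8 markers 3 were called higher and 2 lower. Markers of NK cells and of mast cells and basophils were almost all at 0 (5 of 6 each). Of 7 T cell markers Cd3e, Cd8a and Trbc2 were at 0, and the 7 summed to 4.21 to 5.11 CPM unstimulated and 4.4 to 5.67 CPM with LPS. The 6 B cell markers summed to 21.6 to 30.1 CPM and 15.2 to 22.4 CPM. Higher sums came from the 6 megakaryocyte markers, at 126 to 259 CPM unstimulated and 174 to 295 CPM with LPS. The 8 neutrophil markers summed to 21.2 to 33.1 CPM unstimulated and 43.6 to 53.4 CPM with LPS. The 6 dendritic cell markers summed to 0.699 to 1.0 CPM unstimulated and 3.64 to 4.77 CPM with LPS. Both that were tested were called higher. The part of such cells in the results was not tested. The osteoclast list rose from 63.4 to 78.6 CPM to 210 to 224 CPM, of which Acp5, tartrate-resistant acid phosphatase, a gene that macrophages also express, made up 6.6 and 110 CPM. In such bulk samples fewer cells of a type and less RNA per cell cannot be told apart.

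LPS for 2 hours changed most genes that these macrophages expressed. Of 13068 genes tested, 3868 were higher (29.6%) and 4372 lower (33.5%) with LPS at an adjusted p under 0.05 (edgeR quasi-likelihood test, Benjamini-Hochberg). At least 2-fold changes were called for 1894 genes upward (14.5%) and 2082 downward (15.9%). The large changes were mostly rises: 914 genes rose and 611 fell at least 4-fold, 494 and 178 at least 8-fold, and 181 and 18 at least 32-fold. The LPS and unstimulated libraries did not overlap for 8138 genes (62.3%). Without libraries 7 and 8 the counts were 4042 higher and 4357 lower. The balance depends on the scaling: with library size alone the median log2 fold change is 0.59 lower (a shift of -0.59), and 1996 genes were called higher and 8484 lower (1187 and 4333 at least 2-fold). The genes raised at least 8-fold, which were chosen by this contrast, held 1.13, 1.27 and 0.941% of all counts in the unstimulated libraries and 14.9 to 15.7% in the LPS libraries.

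**Figure D1:**
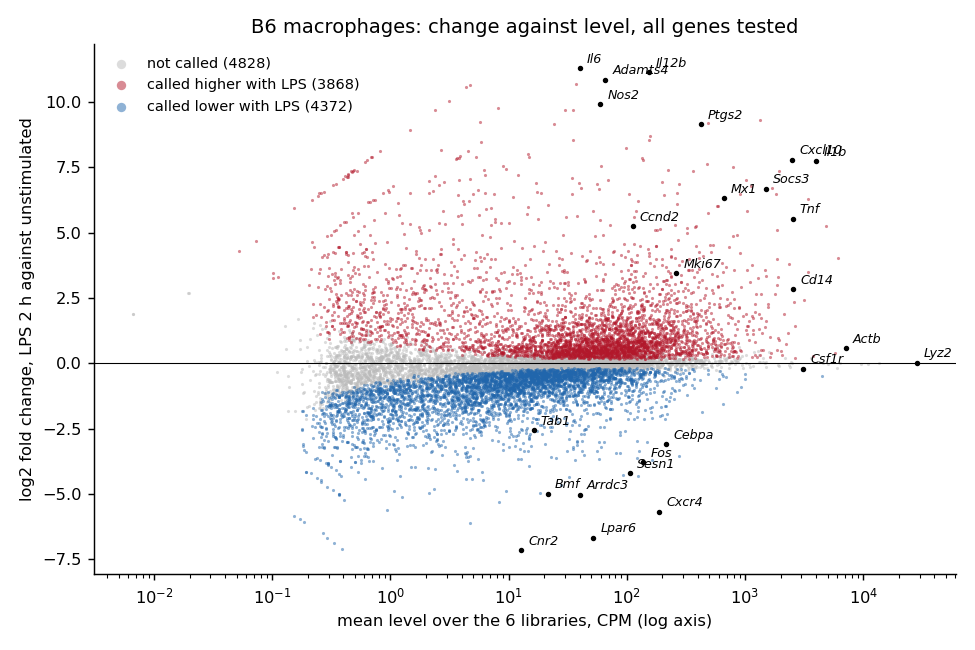
Log2 fold change with LPS (vertical) against the mean level over the 6 B6 libraries in CPM (horizontal, log axis), with 1 point per gene tested, red for 3868 genes called higher and blue for 4372 called lower. Rises reach further from 0 than falls, with 181 genes against 18 past 32-fold.

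The most abundant transcripts were partly replaced. Lyz2, the lysozyme gene, led every library at 24746, 24529.9 and 35351 CPM unstimulated and 26226, 27159.7 and 32391 CPM with LPS, and Ctsb (cathepsin B), Apoe (apolipoprotein E) and Psap (prosaposin) also kept their places among the top 10. New among the top 10 with LPS were Tnfaip2, a TNF-inducible gene, from 717 ± 164 to 11619 ± 404 CPM (log2 fold change 4.02 ± 0.17), Sdc4, the cell surface proteoglycan syndecan-4, from 243 ± 43.1 to 9355 ± 982 CPM (log2 fold change 5.26 ± 0.19), Il1b and Acod1. The top 100 genes of each library held 29.5 ± 0.656% of its counts with LPS and 26.8 ± 2.23% without (exact permutation test, two-sided, p = 0.3, with 0.1 the smallest that 3 against 3 allows). Ripk1, the kinase altered in the other mice of the study, lay at 95.3, 99.4 and 74.3 CPM and 90.9, 85.9 and 80.7 CPM, with overlapping groups (-0.06 ± 0.12, adjusted p = 0.674).

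Some genes went from silence to high expression. Called higher were 145 genes with at most 3 counts in every unstimulated library, of which 6 reached at least 10 CPM in every LPS library. Adamts4, an enzyme that cleaves the matrix proteoglycan aggrecan, had 1, 3 and 1 counts in the unstimulated libraries and 3329, 3093 and 1767 with LPS. Il6, encoding interleukin-6, had 0, 1 and 1 and 2157, 2214 and 861 counts. Shisa3, an inhibitor of WNT and FGF receptor maturation, had 0, 3 and 0 and 1936, 1788 and 959, and Edn1, the vasoconstrictor endothelin-1, had 2, 2 and 2 and 1223, 1117 and 661. Sele, the leukocyte adhesion molecule E-selectin, best known from endothelium, had no count in the unstimulated libraries and 223, 239 and 130 with LPS. Of 6 other endothelial markers 4 were tested and 1 was called higher, Tek and Emcn had no count, and their summed level was 21.7 to 40.7 CPM unstimulated and 29.2 to 40.7 CPM with LPS. The part of endothelial cells in the result was not tested. Dll1, a ligand of Notch receptors, went from 1, 1 and 0 to 190, 180 and 112 counts while Hes1, a transcriptional target of Notch, went from 30, 28 and 27 to 2, 0 and 1. Of 111 genes called lower with at most 3 counts in every LPS library, none started at 10 CPM or more in every library. The highest of these was Tbx6, a T-box transcription factor, with 67, 56 and 53 counts unstimulated and 1, 1 and 2 with LPS.

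Promoter sequences of the genes named below were read from RefSeq (build GRCm38.p6). They run from 250 bases before to 30 after the annotated start, 5′ to 3′ along the gene, and capitals mark matches to any of 8 motifs searched on both strands. The set holds the gene with the largest rise among called genes with a match to the kB motif (Il6, also for the AP-1 motif), the ISRE (Edn1), the TATA box (Sele), the E-box (Ptgs2, the inducible cyclooxygenase) and the ETS motif (Ifih1, the RNA sensor MDA5), and the largest fall for kB (Tbx6) and TATA box (Cxcr4, a chemokine receptor).
Il6, chr5:30012864-30013143, plus strand: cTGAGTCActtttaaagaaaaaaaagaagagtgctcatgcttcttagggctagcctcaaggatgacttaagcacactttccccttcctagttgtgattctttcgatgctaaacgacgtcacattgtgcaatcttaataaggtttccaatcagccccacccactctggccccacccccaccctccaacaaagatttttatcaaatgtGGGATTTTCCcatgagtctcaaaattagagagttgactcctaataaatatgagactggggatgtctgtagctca
Edn1, chr13:42301226-42301505, plus strand: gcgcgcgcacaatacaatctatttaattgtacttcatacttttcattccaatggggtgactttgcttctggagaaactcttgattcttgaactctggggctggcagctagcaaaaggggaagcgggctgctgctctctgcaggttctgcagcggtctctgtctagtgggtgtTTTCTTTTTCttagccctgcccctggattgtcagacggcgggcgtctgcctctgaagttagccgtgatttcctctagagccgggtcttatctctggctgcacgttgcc
Sele, chr1:164047984-164048263, plus strand: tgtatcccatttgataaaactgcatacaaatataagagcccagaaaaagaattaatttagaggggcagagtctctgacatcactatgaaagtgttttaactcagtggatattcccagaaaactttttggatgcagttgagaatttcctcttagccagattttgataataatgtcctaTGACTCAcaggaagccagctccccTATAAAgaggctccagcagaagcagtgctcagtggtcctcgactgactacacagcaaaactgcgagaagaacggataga
Ptgs2, chr1:150099781-150100060, plus strand: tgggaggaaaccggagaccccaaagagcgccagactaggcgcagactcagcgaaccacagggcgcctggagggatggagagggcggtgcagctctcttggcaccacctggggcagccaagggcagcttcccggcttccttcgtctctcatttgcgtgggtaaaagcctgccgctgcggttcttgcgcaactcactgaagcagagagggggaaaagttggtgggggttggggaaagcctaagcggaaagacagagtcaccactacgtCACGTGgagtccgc
Ifih1, chr2:62646226-62646505, minus strand: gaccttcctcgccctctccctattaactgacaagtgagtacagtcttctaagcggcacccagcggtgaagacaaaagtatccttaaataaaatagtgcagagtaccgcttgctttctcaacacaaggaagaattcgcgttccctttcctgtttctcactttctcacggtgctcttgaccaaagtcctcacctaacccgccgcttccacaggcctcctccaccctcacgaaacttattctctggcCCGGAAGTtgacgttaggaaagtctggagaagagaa
Tbx6, chr7:126781233-126781512, plus strand: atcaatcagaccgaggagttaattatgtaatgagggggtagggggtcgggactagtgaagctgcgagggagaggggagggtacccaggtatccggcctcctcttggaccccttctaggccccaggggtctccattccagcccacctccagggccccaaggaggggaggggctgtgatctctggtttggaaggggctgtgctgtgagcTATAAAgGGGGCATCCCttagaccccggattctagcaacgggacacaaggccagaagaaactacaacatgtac
Cxcr4, chr1:128592270-128592549, minus strand: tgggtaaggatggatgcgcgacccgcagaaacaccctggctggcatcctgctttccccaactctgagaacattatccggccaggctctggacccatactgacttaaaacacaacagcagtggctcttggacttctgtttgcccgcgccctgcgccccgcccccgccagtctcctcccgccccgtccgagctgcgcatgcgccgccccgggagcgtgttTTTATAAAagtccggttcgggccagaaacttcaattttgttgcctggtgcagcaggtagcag
Counted from the start (the first transcribed base is 1), the kB match of Il6 spans bases -44 to -35 and its AP-1 match -249 to -243, the ISRE match of Edn1 -78 to -69, and the E-box of Ptgs2 17 to 22. Sele holds a TATA box at -49 to -44 and an AP-1 match at -73 to -67. Ifih1, an interferon-stimulated gene, holds the ETS match at -6 to 2 and an ISRE match at 33 to 42, beyond the stretch shown. Tbx6, which fell, also holds a kB match (-36 to -27), next to a TATA box at -43 to -38, and Cxcr4 holds overlapping TATA matches on both strands between -32 and -25.

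Over the 7652 genes tested that had exactly 1 RefSeq promoter of 300 bases, promoters of the 493 genes raised at least 4-fold were searched for the motifs and set beside all of them, as a description without a test. The kB motif, the site of NF-kB, was in 18.3% of them, against 10.1% of all and 8.71% of the 287 genes lowered at least 4-fold. The ISRE (GAAANNGAAA), bound by IRF and STAT complexes, was in 10.5%, 3.5% and 1.39%, the AP-1 motif (TGANTCA) in 10.5%, 4.78% and 4.53%, and the TATA box (TATAAA) in 14.2%, 7.02% and 9.06%. Other motifs were least frequent in raised genes and most frequent over all genes: the ETS motif (CCGGAAGT) was in 1.01%, 9.27% and 5.57%, the E-box (CACGTG) in 6.69%, 10.4% and 8.01%, and the cyclic AMP response element (CRE, TGACGTCA) in 1.62%, 3.4% and 2.44%. The CArG box of serum response factor was rare throughout (1.22%, 1.25% and 0.348%). Raised genes also had fewer CpG dinucleotides, with a median of 14 per promoter against 21 overall and 20 in lowered genes. Matches are descriptions of letters, the base composition differs between the sets, and 31 promoters held overlapping matches to different motifs.

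**Figure D2:**
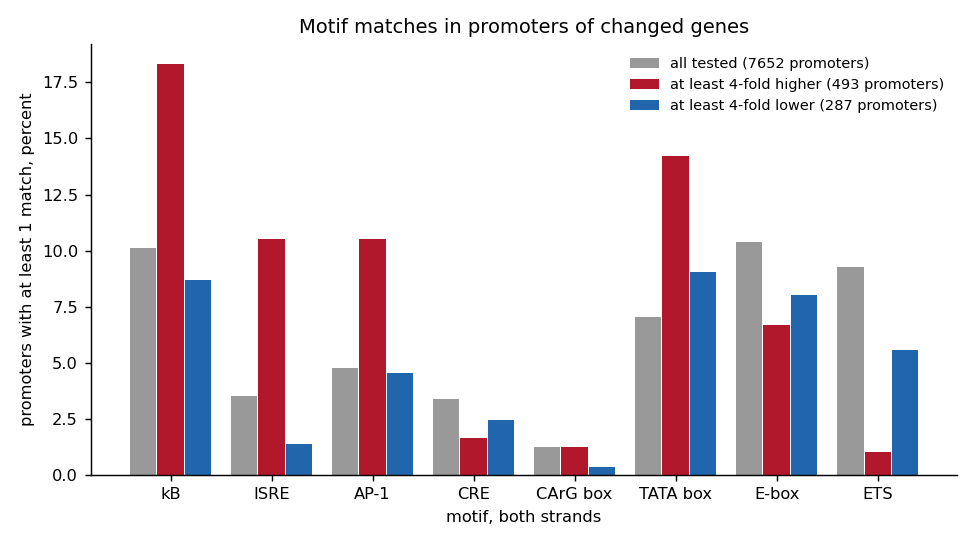
Share of 300-base promoters with at least 1 match to each of 8 motifs (percent), for all 7652 genes with 1 promoter (grey), 493 genes raised at least 4-fold (red) and 287 lowered at least 4-fold (blue). kB, ISRE, AP-1 and TATA box bars are tallest for raised genes, and the ETS bar is lowest for them.

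Of 29 genes of the TLR4 receptor and its proximal signalling tested, 20 were higher and 4 lower (median log2 fold change 0.73, or 0.14 with library size alone, against -0.07 and -0.66 over all genes). Cd14, which hands LPS to the receptor, rose from 562, 649.8 and 650.5 to 4053, 4336 and 4999.6 CPM (2.85 ± 0.13, adjusted p = 4.67e-12). Tlr4 itself fell from 96.4, 107 and 52.1 to 38, 38.6 and 25.4 CPM (-1.32 ± 0.26, adjusted p = 0.000271), with every LPS library below every unstimulated one. Both adaptor branches rose: Myd88 from 90.7 to 365 CPM (2.01 ± 0.09), Ticam1, which encodes TRIF, from 25.5 to 73.7 CPM (1.53 ± 0.09), and the bridging adaptors Tirap (1.30 ± 0.13) and Ticam2 (0.69 ± 0.09). The call of Ticam2 was lost with library size alone (0.1). Among the subunits that activate TAK1, Tab2 rose from 182 ± 28.5 to 741 ± 44.6 CPM (log2 fold change 2.02 ± 0.11), whereas Tab1, which also activates the kinase, fell from 27.9, 26.2 and 29.2 to 4.8, 4.93 and 4.43 CPM (-2.55 ± 0.14). The kinase gene Map3k7 (TAK1) itself stood at 59.1 ± 11.1 and 75.1 ± 9.45 CPM, and its call (0.35 ± 0.12) was lost without library 2 (0.29), 5 (0.3) or 7 (0.2) and its sign turned with library size alone (-0.24). Peli1, a ubiquitin ligase of the pathway, rose from 40.4 to 636 CPM (3.98 ± 0.18) and Map3k8, the kinase TPL2 that feeds the ERK branch, from 29.2 to 222 CPM (2.93 ± 0.13), while the related ligase gene Peli2 fell (-0.68 ± 0.12). The inhibitory kinase gene Irak3 rose (1.50 ± 0.10) and Irak4, which binds MyD88 directly, fell (-0.56 ± 0.08). Without library 7 the number called lower was 7 rather than 4. Among 11 genes of other Toll-like receptors and their chaperones, 5 were higher and 4 lower (3 and 7 with library size alone), against shares of 29.6% and 33.5% over all genes. Tlr2, the receptor for bacterial lipopeptides, rose from 575 to 2577 CPM (2.16 ± 0.16) and Tlr1, its partner, by 1.44 ± 0.10, while Tlr13, which senses bacterial ribosomal RNA, fell from 346 to 166 CPM (-1.06 ± 0.17). Tlr9, which senses CpG DNA, was called lower (-0.79 ± 0.23), with overlapping groups. Its call was lost with the 6 libraries alone (-0.72).

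NF-kB genes rose nearly as a block. Of 22 tested, 20 were higher and 1 lower, with a median of 2.60. All 5 subunits rose, Nfkb1 from 202 to 1362 CPM (2.75 ± 0.11), Nfkb2 from 138 to 1039 CPM (2.91 ± 0.11) and Rel from 92.8 to 704 CPM (2.92 ± 0.24) more than Rela, the subunit p65, from 118 to 340.5 CPM (1.52 ± 0.08). The inhibitors rose with them: Nfkbia, encoding IkB-alpha, went from 252, 305 and 245 to 2495, 2657 and 3104 CPM (3.36 ± 0.16), and Nfkbiz, an atypical nuclear IkB protein needed for secondary genes such as Il6, from 54.4 to 1657 CPM (4.93 ± 0.18). Of the regulators of ubiquitin chains, Tnfaip3, which encodes A20, rose from 104, 142 and 63.8 to 3674, 3569.8 and 3558 CPM (5.12 ± 0.27) and Traf1, an adaptor of TNF receptors, from 12.6 to 502 CPM (5.30 ± 0.16). Otulin, which removes linear ubiquitin, was the member called lower (-0.32 ± 0.12), with overlapping groups. Its call was lost without library 2 (-0.26), 5 (-0.29) or 7 (-0.13) and with DESeq2 (-0.28).

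Of 28 AP-1 and immediate early genes tested, 20 were higher and 4 lower (median 0.83), or 14 and 8 with library size alone (median 0.24). Fos fell from 251, 259 and 262 to 20.2, 15.6 and 20.8 CPM (-3.78 ± 0.15) and Jun from 109 to 20.4 CPM (-2.43 ± 0.14), whereas their relatives Junb rose from 253 to 1177 CPM (2.22 ± 0.17), Fosl2 from 72.8 to 219 CPM (1.58 ± 0.26) and Maff, a small MAF protein, from 10 to 143 CPM (3.82 ± 0.19). The largest rise was that of Jdp2, which encodes a repressor that pairs with JUN proteins: 20.8, 21.3 and 17.1 CPM became 671, 669.9 and 876 (5.22 ± 0.18). The 3 orphan nuclear receptors of the NR4A family also parted: Nr4a3 rose from 0.384 to 11.5 CPM (4.91 ± 0.24), Nr4a1 fell from 24 to 7.44 CPM (-1.72 ± 0.16), and Nr4a2 was called lower (-0.72 ± 0.24) with overlapping groups, a call lost without library 4 (-0.61), 5 (-0.6) or 8 (-0.61).

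Among IRF and STAT factors, 11 of 15 rose and none fell (median 1.18), while with library size alone 10 rose and 2 fell (median 0.59). Irf1 rose from 93.4 ± 13.2 to 1729.8 ± 28.6 CPM (log2 fold change 4.21 ± 0.13), Irf7, the amplifier of interferon production, from 58.5 to 369 CPM (2.66 ± 0.19), and Stat2 from 68.1 to 375 CPM (2.46 ± 0.09). Stat5a, which relays growth factor signals such as GM-CSF, rose the most of the STAT genes, from 26.4, 27.8 and 24.6 to 432, 415 and 491 CPM (4.08 ± 0.09), ahead of its near copy Stat5b (0.98 ± 0.09). Irf3, the factor that TRIF signalling activates, stood at 40.9 ± 10.1 and 47 ± 8.26 CPM (not called, but called higher in the fit with sets of libraries, at 0.27). Stat6, which relays interleukin-4, stood at 288 ± 26.3 and 293 ± 9.94 CPM (not called).

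Of 28 factors of macrophage identity tested, 9 were higher and 16 lower (median -0.49). Cebpa, a factor of myeloid differentiation, fell from 369.9, 335 and 455 to 47.3, 47.3 and 40.3 CPM (-3.10 ± 0.14, adjusted p = 6.36e-12), while its relatives Cebpb and Cebpd, which are typical of inflammation, rose by 0.98 ± 0.23 and 2.35 ± 0.29. The call of Cebpb was lost with library size alone (0.39). A similar opposition appeared in the MiT family of lysosome and lineage regulators: Tfeb fell from 70.6 to 10.8 CPM (-2.70 ± 0.15), whereas Tfec rose from 38.6 to 427 CPM (3.46 ± 0.11) and Mitf from 124 to 478 CPM (1.95 ± 0.15). Spi1, which encodes the macrophage master factor PU.1, rose from 368 to 710.2 CPM (0.95 ± 0.12), and Ets2 and Etv3, other ETS factors, rose by 2.86 ± 0.18 and 2.51 ± 0.20. Id1 (-1.87 ± 0.34) and Id3 (-1.35 ± 0.24), which encode inhibitors of DNA binding, fell, as did Bcl6, a repressor of inflammatory genes (-1.24 ± 0.08), and the lipid-sensing receptor gene Pparg (-1.09 ± 0.09). Among 10 Kruppel-like factors 4 rose and 3 fell (median 0.36, or -0.23 with library size alone), against shares of 29.6% and 33.5% over all genes. Their largest rises were those of Klf7 from 23.6 to 264 CPM (3.47 ± 0.24) and Klf6 from 334 to 1442 CPM (2.11 ± 0.19).

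**Figure D3:**
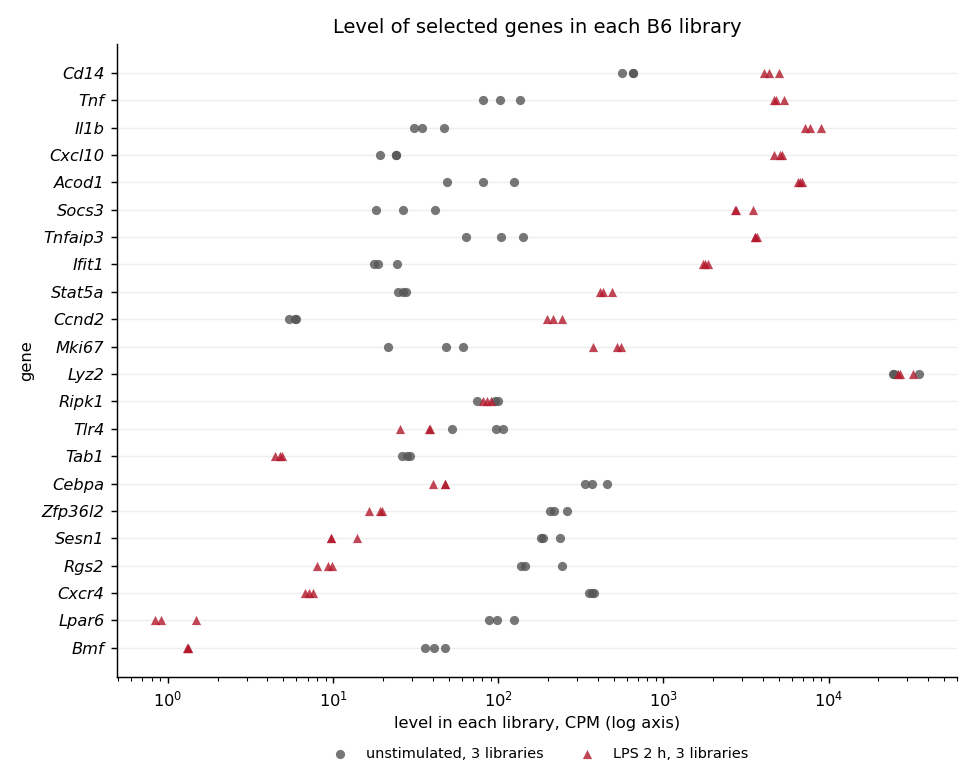
Level of 22 genes in each B6 library, in CPM on a log axis, with grey circles for the 3 unstimulated and red triangles for the 3 LPS libraries. Cytokine, feedback and interferon genes lie to the right with LPS, Lyz2 and Ripk1 overlap, and genes from Tlr4 down to Bmf lie to the left.

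Of 36 cytokine genes tested, 28 were higher and 1 lower, with a median log2 fold change of 4.50. Tnf rose from 103, 135 and 80.9 to 4667, 4806 and 5368 CPM (5.54 ± 0.23, adjusted p = 1.89e-12), and the interleukin-1 pair to 7187, 7724 and 8975 CPM for Il1b (from 34.4, 46.9 and 31.1, 7.73 ± 0.29) and 2603, 2614 and 2772 CPM for Il1a (from 3.8, 5.14 and 3.33, 9.32 ± 0.32). Il1rn, the natural antagonist of both, rose with them, from 44.4 to 1025 CPM (4.53 ± 0.17). Per kilobase of exon, Il1b stood at 4175, Tnf at 3018, Il1a at 1349 and Il1rn at 185 CPM per kb with LPS. Interleukin-12 subunits differed in level: Il12b, the p40 subunit shared by interleukins 12 and 23, had 1, 8 and 1 counts and then 8114, 8343 and 3429, or 156 CPM per kb with LPS. Its partners were lower per kilobase, Il23a (p19) at 7.27 and Il12a (p35), with no count in the unstimulated libraries, at 0.748 CPM per kb. Il27, which encodes the p28 subunit, rose from 0.776 ± 0.325 to 313 ± 65.4 CPM (log2 fold change 8.70 ± 0.25) and its partner Ebi3 from 37.3 to 141 CPM (1.92 ± 0.23). Il10, the chief anti-inflammatory cytokine, rose from 1.07 ± 0.0987 to 137 ± 21.5 CPM (log2 fold change 7.00 ± 0.25).

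Of the TNF family ligands for T cells, Tnfsf9, the ligand of 4-1BB, went from 4.66 to 941 CPM (7.63 ± 0.41), Tnfsf4, the ligand of OX40, from 0.644 to 121 CPM (7.56 ± 0.24) and Tnfsf15 from 0.732 to 81.2 CPM (6.72 ± 0.38). Colony stimulating factor genes rose too, Csf1, the gene of M-CSF itself, from 11 to 246 CPM (4.48 ± 0.12). The others started from low or no counts: Csf2 (GM-CSF) had 0, 0 and 2 and then 246, 248 and 196 counts and Csf3 (G-CSF) 1, 2 and 1 and 141, 171 and 133. Vegfa, the vascular growth factor, was the 1 member called lower, from 45.1 to 19.9 CPM (-1.19 ± 0.14). Igf1, a growth factor abundant in resting macrophages, stood at 868, 925 and 608 CPM and 898, 915 and 769 CPM (not called).

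Chemokine genes showed a median of 6.53, with 18 of 20 higher and 1 lower. Cxcl10, which attracts T cells and responds to interferon, rose from 19.1, 23.9 and 24.2 to 4651, 5049 and 5254 CPM (7.80 ± 0.33), Ccl4 from 23.1 to 3834 CPM (7.38 ± 0.24), Ccl3 from 32.1 to 3368 CPM (6.72 ± 0.19) and Ccl5 from 8.63 to 1573 CPM (7.53 ± 0.39). Neutrophil attractants rose too: Cxcl1 from 0.768 to 305 CPM (8.54 ± 0.28), Cxcl2 from 35 to 2028 CPM (5.85 ± 0.27) and Cxcl3 from 0.65 to 196 CPM (8.25 ± 0.22). Ccl9, already abundant without LPS, rose less, from 983 to 5339.9 CPM (2.44 ± 0.09). Cxcl14 fell, from 55.6 to 36 CPM (-0.63 ± 0.15). Ccl6, a constitutive chemokine of macrophages, lay at 125 ± 46 and 149 ± 30.9 CPM and was called higher only without library 7 (0.59) or libraries 7 and 8 (0.41) and in the fit with sets of libraries (0.35).

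Of 18 receptors for chemoattractants tested, 9 rose and 7 fell (median 0.23, or -0.36 with library size alone), against shares of 29.6% and 33.5% over all genes. Cxcr4, the receptor for the bone marrow retention signal CXCL12, fell from 382, 368 and 353 to 7.56, 6.78 and 7.15 CPM (-5.68 ± 0.13, adjusted p = 2.05e-15), a 51.3-fold drop with non-overlapping groups. Cx3cr1, the fractalkine receptor, fell from 191 to 59.7 CPM (-1.68 ± 0.09) and S1pr1, a receptor for sphingosine 1-phosphate, from 85.5 to 29.7 CPM (-1.53 ± 0.09). Receptors for bacterial formyl peptides rose, Fpr1 from 1.8 to 25.6 CPM (3.78 ± 0.14) and Fpr2 from 4.56 to 78.2 CPM (4.12 ± 0.20), as did Ccrl2, a chemerin-binding receptor that does not signal, from 25.7 to 443 CPM (4.10 ± 0.17), and Ptafr, the receptor for platelet-activating factor, from 253 to 823 CPM (1.70 ± 0.11). Of 25 cytokine receptor genes 14 were higher and 5 lower, and with library size alone 11 and 12. Il15ra, which presents interleukin-15 to lymphocytes, rose from 3.6 to 104 CPM (4.88 ± 0.16), Il1r1 from 0.811 to 13.3 CPM (3.98 ± 0.21) and Tnfrsf1b, the gene of TNF receptor 2, from 855 to 4343 CPM (2.35 ± 0.12), whereas Il21r fell from 56.8 to 12.6 CPM (-2.20 ± 0.14) and Il6ra from 131 to 71 CPM (-0.88 ± 0.10). Leaving out any single library other than 7 reduced the number of cytokine receptors called lower from 5 to 3. Csf1r, the M-CSF receptor, was at 3461, 3484 and 2968 CPM and 2912, 2877 and 2779 CPM (-0.21 ± 0.08). Its call was lost without any single library other than 7 (-0.17 to -0.22).

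Interferon-stimulated genes rose almost without exception: 47 of 48 were higher and 1 lower, with a median of 3.51. Ifnb1, the interferon beta gene, had 3, 1 and 1 counts unstimulated and 1399, 1595 and 772 with LPS. Antiviral effectors were abundant by 2 hours, with Rsad2 (viperin) rising from 40.8 ± 1.19 to 3627 ± 273 CPM (log2 fold change 6.47 ± 0.31), Ifit1 from 17.7, 18.8 and 24.4 to 1789.9, 1853 and 1724 CPM (6.47 ± 0.29), Mx1 from 16.4 to 1306 CPM (6.31 ± 0.25) and Cmpk2, a nucleotide kinase encoded next to Rsad2, from 17.7 to 1164 CPM (6.04 ± 0.25). All 12 listed GTPases of the guanylate-binding and immunity-related families rose, led by Gbp5 from 15.8 to 2035 CPM (7.00 ± 0.27), although reads of these similar genes may be shared. Gbp8, which the list does not hold, was not called (-0.62 ± 0.31). Among nucleic acid sensors Ifih1 rose from 42 to 975 CPM (4.53 ± 0.20) and Ifi205 from 5.61 to 521 CPM (6.53 ± 0.28). Tmem173, which encodes the DNA-sensing adaptor STING, was the member that fell, from 28.9 ± 2.06 to 17.3 ± 0.892 CPM (log2 fold change -0.74 ± 0.09).

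Of 30 feedback inhibitors of MAP kinase and cytokine signalling, 18 rose and 8 fell (median 1.27). Socs3, which blocks signalling by interleukin-6, rose from 26.5, 41.2 and 18.3 to 2749, 2712 and 3500.2 CPM (6.69 ± 0.36), Cish from 1.2 to 275 CPM (7.79 ± 0.26) and Socs1 from 0.667 to 78.8 CPM (6.92 ± 0.28), whereas Socs6 fell (-1.12 ± 0.10). The dual specificity phosphatases were split: Dusp1, Dusp2 and Dusp16 rose by 2.89 ± 0.19, 6.09 ± 0.29 and 3.31 ± 0.28, while Dusp6, a phosphatase of ERK in the cytoplasm, fell from 22.7, 22.6 and 22.2 to 2.08, 2.52 and 2.33 CPM (-3.28 ± 0.16). Rgs2, which dampens G protein signalling, fell from 175 ± 58.7 to 9.06 ± 0.912 CPM (log2 fold change -4.27 ± 0.24) and its relative Rgs16 rose from 0.706 to 9.41 CPM (3.66 ± 0.22). Gadd45b rose from 32.7 to 735 CPM (4.49 ± 0.17) and Gadd45g fell from 18.9 to 7.24 CPM (-1.44 ± 0.27), both members of a stress kinase regulator family. Tnfaip8l2 (TIPE2), an inhibitor of Toll-like receptor responses, fell from 103 to 13.1 CPM (-2.99 ± 0.22).

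Of 19 genes of factors that act on mRNA decay, 13 rose and 4 fell (median 0.66), or 8 and 5 with library size alone (median 0.07). Zfp36, which encodes the AU-rich element binding protein tristetraprolin, rose from 247 ± 14.9 to 1379 ± 333 CPM (log2 fold change 2.48 ± 0.15), while Zfp36l2, of the same family, fell from 259, 216 and 205 to 19.7, 16.6 and 19.3 CPM (-3.61 ± 0.14). The RNase genes Zc3h12a (regnase-1) and Zc3h12c rose by 3.18 ± 0.15 and 3.32 ± 0.37, and Arid5a, which protects Il6 mRNA from regnase-1, rose from 8.36 to 79.1 CPM (3.24 ± 0.19). Mir155hg, the host gene of miR-155, rose from 1.02 ± 1.01 to 268 ± 13.1 CPM (log2 fold change 7.86 ± 0.41). Its mature product miR-155-5p, as given in RefSeq, is shown because it represses inhibitors of this pathway such as SOCS1, with the seed (bases 2 to 8) in capitals.
mmu-miR-155-5p, chr16:84714143-84714165, plus strand: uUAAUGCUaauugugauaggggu
The libraries counted the host transcript, and the mature miRNA was not measured. Of 17 miRNA hosts and long noncoding RNAs 4 rose and 6 fell, shares near the 29.6% and 33.5% over all genes. Among those that fell was Neat1, the scaffold of nuclear paraspeckles, from 1168 to 549 CPM (-1.09 ± 0.17). Ptgs2os2, antisense to Ptgs2, went from 1, 1 and 0 to 179, 209 and 82 counts, and the strand setting of the counting is not given in the sources used here, so its reads cannot be told from those of Ptgs2.

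Of 26 enzymes of inflammatory mediators tested, 14 rose and 5 fell (median 0.77), or 13 and 11 with library size alone (median 0.18). Acod1, which makes the antibacterial metabolite itaconate, rose from 81, 124 and 49 to 6744, 6868 and 6511 CPM (6.30 ± 0.39), Ptgs2 from 1.41 to 839 CPM (9.15 ± 0.33), Ptges, the terminal prostaglandin E synthase, from 7.48 to 144 CPM (4.26 ± 0.12), and Ch25h, which makes 25-hydroxycholesterol, from 0.935 to 111 CPM (6.86 ± 0.23). Nos2, the inducible nitric oxide synthase, went from 1, 6 and 2 to 2744, 2692 and 1800 counts. Amino acid transporters rose alongside, Slc7a11, the cystine transporter, from 17 to 635 CPM (5.20 ± 0.44) and Slc7a2, which imports arginine, from 4.49 to 224 CPM (5.61 ± 0.21). Ptgs1, the constitutive cyclooxygenase, fell from 32.8 to 18.7 CPM (-0.81 ± 0.18) and Hpgds, which makes prostaglandin D2, from 267 to 176 CPM (-0.60 ± 0.08).

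Of 28 glycolysis and hypoxia genes, 12 rose, 4 fell and 12 were not called (median 0.08, or -0.51 with library size alone). Slc2a6, a lysosomal hexose transporter, rose from 42.7 to 429.8 CPM (3.33 ± 0.14), Slc2a1, the main glucose transporter, from 36.8 to 134 CPM (1.86 ± 0.09), Hk2 (hexokinase 2) from 66.6 to 357 CPM (2.42 ± 0.13), and Pfkfb3, which makes the activator of phosphofructokinase, from 37.9 to 518 CPM (3.77 ± 0.17). Its counterpart Pfkfb4 fell from 46.9 to 15.5 CPM (-1.61 ± 0.11), as did Txnip, an inhibitor of glucose uptake, from 318 to 81.2 CPM (-1.97 ± 0.10). Of the later enzymes, Aldoa stood at 757 ± 59.5 and 791 ± 41.6 CPM and Pkm, pyruvate kinase, at 823 ± 18.5 and 879 ± 29.5 CPM (not called). Hif1a, the hypoxia factor, rose from 96.7 to 402 CPM (2.05 ± 0.17). Among 28 sterol genes 10 rose and 7 fell, shares near those over all genes. With library size alone 5 rose and 15 fell. Of the 9 listed LXR targets 1 rose, 4 fell and 4 were not called (median -0.02). The LXR targets Mylip and Abcg1, which limit cholesterol uptake and export cholesterol, fell (-1.45 ± 0.12 and -1.15 ± 0.12). Not called were Abca1, at 1063 ± 481 and 1489 ± 308 CPM, and Apoe, at 10942 ± 3422 and 10811 ± 1488 CPM.

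The calls of ribosomal and respiratory genes depended on library 7 and on the scaling. None of 24 cytosolic ribosomal protein genes was called (median 0.04), but 19 were called higher without library 7, 13 without libraries 7 and 8, and 24 lower with library size alone. Of 26 nuclear genes of oxidative phosphorylation 5 rose and 1 fell (median 0.07), with 14 higher without library 7, 12 without libraries 7 and 8, and 1 higher and 20 lower with library size alone. Of 13 mitochondrially encoded transcripts 7 were tested, and 5 of these were called higher (median 0.30, or -0.29 with library size alone). Cycs, cytochrome c, rose by 1.48 ± 0.15. Of 26 ribosome biogenesis genes 15 rose and 2 fell (median 0.37), against 4 and 11 with library size alone, with Rrs1 from 15.3 to 82.6 CPM (2.43 ± 0.09), Nop58 (1.43 ± 0.09) and Ddx21 (1.34 ± 0.13) as the largest rises named.

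At the cell surface, costimulatory, adhesion and antigen presentation genes rose in 32 of 35 cases and fell in 1 (median 1.47). With library size alone 23 rose and 3 fell (median 0.88). Cd40, which receives help from T cells, rose from 14.2, 18.1 and 19.6 to 1066, 1077 and 1264 CPM (6.04 ± 0.16), Cd69, an early activation marker, from 10.3 to 368 CPM (5.14 ± 0.27), Icam1 from 217 to 3505 CPM (4.01 ± 0.14), Vcam1 from 2.25 to 205 CPM (6.47 ± 0.19) and Cd274, the inhibitory ligand PD-L1, from 36.6 to 551 CPM (3.90 ± 0.29). The class I peptide transporter Tap1 rose from 59.7 to 313 CPM (2.39 ± 0.13), and Cd200r1, an inhibitory receptor, fell from 53.6 to 26.7 CPM (-1.01 ± 0.11). Of 41 scavenger, phagocytic and complement genes 17 rose, 6 fell and 18 were not called (median 0.14, or -0.46 with library size alone). Olr1, the receptor LOX-1 for oxidized LDL, rose from 4.51 ± 2.31 to 407 ± 10.4 CPM (log2 fold change 6.44 ± 0.35), Clec4e, the receptor Mincle for mycobacterial glycolipid, from 160.5 to 1907 CPM (3.57 ± 0.21), Itgav, the integrin alpha-v, from 371 to 2350.3 CPM (2.66 ± 0.21), and Fcgr2b, the inhibitory IgG receptor, from 115 to 514 CPM (2.16 ± 0.13). Mertk, a receptor for dying cells, fell from 214 to 98.4 CPM (-1.12 ± 0.11) and Stab1, the scavenger receptor stabilin-1, from 1204 to 798 CPM (-0.59 ± 0.10). Gpnmb, Cd68 and the C1q genes were not called, with Gpnmb at 5116 ± 681 and 5017 ± 548 CPM.

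Of 20 protease and coagulation genes 16 rose and 1 fell (median 1.57), or 11 and 5 with library size alone (median 0.99). Mmp13, a collagenase, rose from 20.4 ± 4.37 to 2245 ± 6.09 CPM (log2 fold change 6.77 ± 0.23) and Plaur, the urokinase receptor, from 55 to 663 CPM (3.59 ± 0.13). Plat, the tissue plasminogen activator, went from 1, 4 and 1 to 1736, 1807 and 873 counts, while Plau, the urokinase gene, lay at 258 ± 23.8 and 277 ± 7.69 CPM (not called). F3, the tissue factor that starts coagulation, went from 2, 6 and 2 to 267, 283 and 202 counts. Of 25 actin, GTPase and migration genes 19 rose and 2 fell (median 1.66). Rnd1, a small GTPase that loosens actin fibres, rose from 1.63 ± 0.365 to 970.3 ± 111 CPM (log2 fold change 9.19 ± 0.21), Marcksl1 from 244 to 2345 CPM (3.26 ± 0.19) and Rapgef2, an activator of RAP GTPases, from 31 to 398 CPM (3.67 ± 0.26). Rhov, another small GTPase gene, fell from 6.83 to 0.419 CPM (-4.12 ± 0.33).

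Of 42 inflammasome, death and survival genes 23 rose and 8 fell (median 0.52, or -0.07 with library size alone). Nlrp3, the inflammasome sensor primed by LPS, rose from 105 ± 46.5 to 1202 ± 64 CPM (log2 fold change 3.51 ± 0.26) and Casp4, which encodes the receptor for cytosolic LPS, from 49.3 to 279 CPM (2.50 ± 0.12). Cflar, which encodes the caspase-8 inhibitor FLIP, rose from 172, 213 and 92.7 to 2302, 2189.6 and 1961 CPM (3.75 ± 0.24). The near-identical survival genes Bcl2a1a, Bcl2a1b and Bcl2a1d were all called higher, with reads that may be shared. The killer proteins of the BH3-only group went apart: Bmf fell from 47.3, 40.8 and 36.1 to 1.32, 1.3 and 1.32 CPM (-4.98 ± 0.18), whereas Bcl2l11, which encodes BIM, rose from 246 ± 50.5 to 1131 ± 19.3 CPM (log2 fold change 2.20 ± 0.12). Casp9, the caspase of the apoptosome, fell from 51.2 to 14.5 CPM (-1.82 ± 0.10). Of the necroptosis genes Mlkl, the pore-forming effector, rose from 11.1 to 43 CPM (1.96 ± 0.17), and Ripk3 lay at 9.46 ± 0.936 and 9.22 ± 0.644 CPM (not called).

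Other genes were also among the 20 largest falls. Cnr2, the cannabinoid receptor of immune cells, had 665, 833 and 449 counts unstimulated and 4, 5 and 2 with LPS. Lpar6, a receptor for lysophosphatidic acid, fell from 98.1, 87.5 and 124 to 0.84, 0.906 and 1.48 CPM (-6.67 ± 0.22) and Gpr146, another G protein-coupled receptor, from 53 to 2.16 CPM (-4.67 ± 0.17). Arrdc3, an arrestin-like adaptor, fell from 77.4 ± 11.4 to 2.45 ± 0.514 CPM (log2 fold change -5.02 ± 0.16), Fbxo32 (atrogin-1), a ubiquitin ligase known from muscle wasting, from 35.7 to 1.07 CPM (-4.96 ± 0.27), and Sesn1, a sestrin that restrains mTORC1, from 202 ± 30.7 to 11.1 ± 2.46 CPM (log2 fold change -4.20 ± 0.20). Irf2bp2, a transcriptional repressor of inflammatory genes, fell from 244, 214 and 246 to 10.3, 10.4 and 15.4 CPM (-4.31 ± 0.18), and Lyl1, a haematopoietic helix-loop-helix factor, from 61.6 to 3.15 CPM (-4.34 ± 0.24). In the list of 27 numbered zinc finger genes 20 fell and 3 rose (median -0.87), with Zfp398 at from 10.2 to 1.43 CPM (-2.74 ± 0.32) and the riser Zfp382 at from 3.1 to 16.2 CPM (2.32 ± 0.30).

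Of 17 cyclins and regulators of the cell cycle 5 rose and 7 fell (median -0.21), shares near the 29.6% and 33.5% over all genes. The counts were 5 and 11 with library size alone. Ccnd2 rose from 5.92, 5.97 and 5.38 to 214, 198 and 243 CPM (5.24 ± 0.18), its relative Ccnd1 fell from 75.5 to 35.6 CPM (-1.09 ± 0.10), and Cdkn1a, which encodes the inhibitor p21, rose from 352 ± 11.7 to 3476 ± 439.7 CPM (log2 fold change 3.30 ± 0.10). Trp53inp1, like Cdkn1a a known p53 target, fell from 75.4 to 7.33 CPM (-3.35 ± 0.20). Of 28 replication genes 2 rose and 15 fell (median -0.55), among them Cdt1, which licenses origins, from 56.8 to 19.3 CPM (-1.56 ± 0.10). Of 22 mitosis genes 2 rose and 10 fell (median -0.32), and 4 rose without library 8. Mki67, the gene of the proliferation marker Ki-67, did the reverse of its group: it rose from 48.1, 61 and 21.4 to 549.9, 521 and 373 CPM (3.46 ± 0.29, adjusted p = 1.11e-08), while Top2a, usually found in the same cells, lay at 11.7, 13.1 and 9.68 and 14.8, 14.3 and 10.6 CPM with overlapping groups (called higher without library 8, at 0.34), and Aurkb and Kif11, which act in mitosis, fell (-0.94 ± 0.26 and -0.88 ± 0.21). In T169A cells Mki67 rose by 3.63 ± 0.29.

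Chromatin regulators rose in 20 and fell in 13 of 44 cases (median 0.23, or -0.36 with library size alone), against shares of 29.6% and 33.5% over all genes. Kdm6b, which encodes the histone H3 lysine 27 demethylase JMJD3, rose from 19.4 ± 7.69 to 173 ± 10.6 CPM (log2 fold change 3.15 ± 0.24), Setdb2, a histone methyltransferase induced by interferon, from 9.1 to 78.9 CPM (3.11 ± 0.25), and Tet2, a 5-methylcytosine oxidase, from 61.1 to 284 CPM (2.21 ± 0.28). The DNA methyltransferase genes Dnmt1 and Dnmt3a fell, from 78.1 to 32.2 CPM (-1.28 ± 0.12) and from 172 to 82.5 CPM (-1.06 ± 0.13), as did Hdac5 (-1.28 ± 0.09) and Hexim1, an inhibitor of the elongation factor P-TEFb (-1.23 ± 0.09). Of 33 stress genes 19 rose and 6 fell (median 0.76), or 14 and 12 with library size alone, with Hspa1b, an inducible HSP70 gene, from 1.51 to 38.8 CPM (4.63 ± 0.19), Hspa5, the chaperone BiP, from 563 to 1519 CPM (1.43 ± 0.11) and Txnrd1, thioredoxin reductase, from 216 to 1181 CPM (2.45 ± 0.21) (the number lower was 3 without library 1 or 4 and 2 without library 8). Of 14 iron genes 5 rose and 2 fell (median 0.11, or -0.49 with library size alone), against shares of 29.6% and 33.5% over all genes. Slc40a1, the iron exporter ferroportin, fell from 320.4 ± 69.7 to 103 ± 14.5 CPM (log2 fold change -1.63 ± 0.15), Slc11a2, an iron importer, rose from 89.3 to 282 CPM (1.66 ± 0.10), Cp, ceruloplasmin, from 3.68 to 49.2 CPM (3.77 ± 0.34), and Fth1, ferritin heavy chain, stood at 6368 ± 1289.7 and 6362 ± 437 CPM. Of 26 lysosome genes 3 rose and 8 fell (median -0.12), against shares of 29.6% and 33.5% over all genes. With library size alone 1 rose and 25 fell. Ctsc (cathepsin C) had the largest rise, from 559 to 2066 CPM (1.89 ± 0.10), and Ctsd (cathepsin D) fell from 5247 to 3706 CPM (-0.50 ± 0.13). This call was lost with the 6 libraries alone (-0.45).

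**Figure D4:**
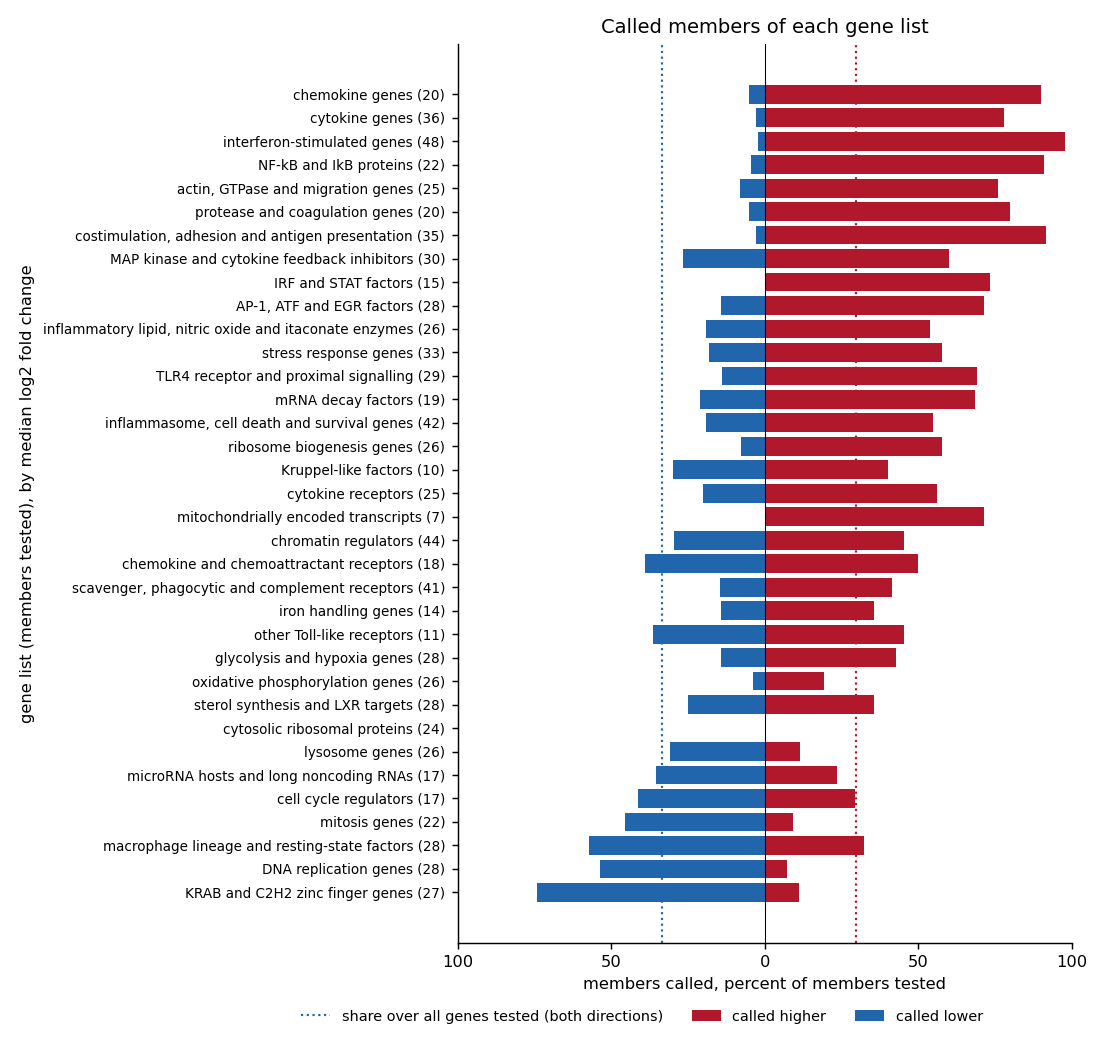
Members called higher (red, to the right) and lower (blue, to the left) as a percent of the members tested, for 35 gene lists ordered by median log2 fold change, with dotted lines at the shares over all genes tested (29.6% and 33.5%). Interferon-stimulated genes (47 of 48), costimulation genes (32 of 35) and NF-kB genes (20 of 22) reach furthest to the right, and zinc finger genes (20 of 27) and macrophage lineage factors (16 of 28) to the left.

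The same 2 hours of LPS in T169A macrophages, with 3 libraries in each group and none shared with B6, gave 3965 genes called higher and 4120 lower. Of the 1894 genes called at least 2-fold higher in B6, 1828 were also called higher in T169A, and of the 2082 lower, 1904. Of these 2-fold changed genes 1 was called in the opposite direction in T169A. The difference between the genotypes in the LPS effect was tested itself, and no gene was called (0.0% of 13068, edgeR). At an unadjusted p under 0.05 there were 421 genes (3.22%), and DESeq2 also called 0. The smallest p-values belonged to Tarm1, a T cell-interacting receptor of myeloid cells (log2 fold change 4.93 ± 0.14 in B6 and 6.03 ± 0.16 in T169A, difference 1.10 ± 0.24), and Ptges (4.26 ± 0.12 and 5.00 ± 0.13), both with an adjusted p of 0.916 for the difference. Next came Atp6v0c-ps2, with a larger difference (-4.88, T169A minus B6) at low levels. In T169A it lay at 3.71, 4.12 and 4.04 CPM unstimulated and 0.327, 0.255 and 0.517 CPM with LPS. The genotypes cannot be told apart from another feature of the cells: all 6 B6 libraries held Xist, expressed from an inactive X chromosome, at 348 to 1337 CPM and at most 1 count of the Y-linked genes Ddx3y, Eif2s3y, Kdm5d and Uty, whereas the 6 T169A libraries held Xist at 0 to 1.11 CPM and Ddx3y at 78.9 to 115 CPM.

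**Figure D5:**
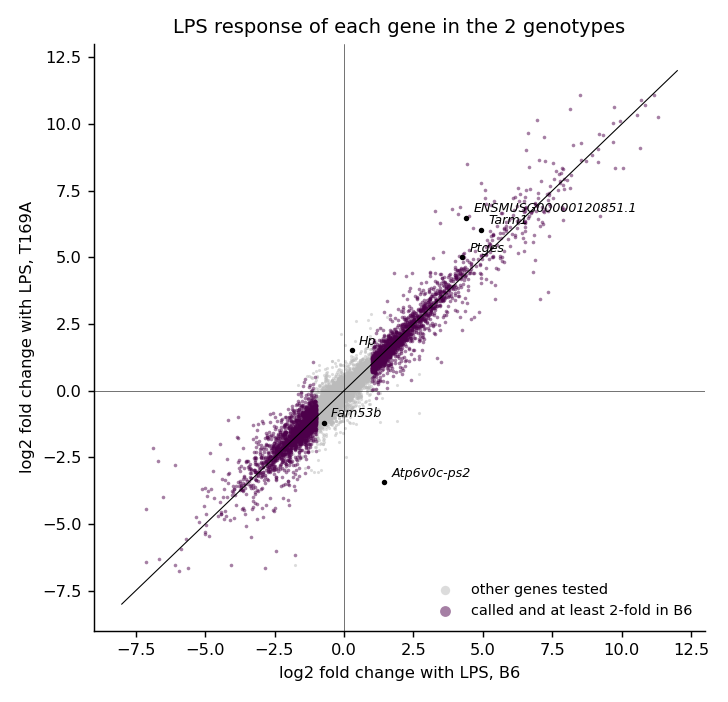
Log2 fold change with LPS in T169A (vertical) against B6 (horizontal), with 1 point per gene tested, purple for genes called and at least 2-fold in B6, and the line of equal change. The 6 genes named have the smallest unadjusted p for a difference between genotypes, and none passes adjustment.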

How the data were processed

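Raw counts per gene were deposited by the authors. The submitters' processing notes list Trim Galore, STAR, featureCounts and build GRCm39 without versions, and the labels' protocols state TRIzol extraction and a directional library kit. Whether counting used strand, and how reads matching several genes were treated, is not given in the sources used here, so overlapping, antisense and near-identical genes are uncertain. Each column is named by group and running number, and no column was left out. Of 56953 gene IDs, 52029 (91.4%) matched a symbol in GENCODE M21 or, where that gave none, in RefSeq, with 99.77% of counts.

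Counts were analysed with edgeR 4.0.16 (R 4.3.3): filterByExpr by group, TMM, and a robust quasi-likelihood fit of 6 group means over all 18 libraries, with Benjamini-Hochberg adjustment over 13068 genes and a threshold of 0.05. SEs were taken as the size of the log2 change over the root of the F statistic. A floor of 3 counts corresponds to 0.0886 to 0.233 CPM in the 6 libraries. Promoters were matched by symbol (9592 genes, of which 7652 had exactly 1). Exon lengths came from GENCODE M21, whose build differs from that of the counts.

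The comparison, the gene lists and the rule for naming genes were chosen with earlier results of these data known. Named are the 20 called genes with the largest change each way (groups not overlapping, at least 10 CPM), up to 6 called members each way and 3 abundant members not called per list, the 10 most abundant genes, genes with at most 3 counts per library in one group, genes with the smallest p for the genotype difference, the printed promoters and 20 genes fixed by name. Some genes that this rule selects are not reported here. Named outside this rule, after their values were seen, were Bcl2a1b, Ccl5, Ccl9, Cd274, Cebpb, Cflar, Cxcl2, Dusp1, Dusp16, Ebi3, F3, Fosl2, Gbp8, Id1, Id3, Ifi205, Ifit1, Il10, Il12a, Il1rn, Irak3, Irf3, Marcksl1, Mlkl, Nlrp3, Rapgef2, Rel, Rela, Rgs16, Ripk3, Rsad2, Slc7a11, Stat5b, Ticam2, Tirap, Tnfaip3, Tnfsf15, Tnfsf9, Txnrd1, Zc3h12c and the sex-linked genes. Alternatives were DESeq2 1.42.0, other scalings, filters and thresholds, the 6 libraries alone, each library left out and, added after seeing the data, libraries 7 and 8 left out. Figures used Python 3.11.15 and matplotlib 3.10.9.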

Additional observations from a re-analysis of the deposited data

How the results depend on the processing

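Of the alternatives run, scaling by library size alone moved the counts of called genes by over 1.5 times, to 1996 higher and 8484 lower, and 1187 and 4333 at least 2-fold. Higher and lower calls were 4267 and 4068 with DESeq2, 4091 and 4145 with DESeq2 size factors, 3881 and 4230 without a filter, 3632 and 4146 with a filter of 1 CPM, 3372 and 3254 with the 6 libraries alone, 3329 and 3538 at an adjusted p under 0.01, and 3627 to 4129 and 3939 to 4480 with each library left out. The genotype difference gave 0 calls in each of these that was run for it. With library size alone the log2 fold changes of Aldoa (-0.53), Cd68 (-0.53), Ctsb (-0.58), Igf1 (-0.48), Lyz2 (-0.57), Map3k7 (-0.24), Pkm (-0.50), Plau (-0.49), Stat6 (-0.57) and Top2a (-0.38) turned negative. Counts of list members moved by over 1.5 times in 39 of 70 cases with library size alone and in 0 to 10 of 70 in each other setting. The difference in the share of counts held by the top 100 genes (2.67 percentage points, not past the test) was 1.95 to 3.95 with each library left out and 0.333 for the top 50 genes (exact permutation test, p = 0.9). In the narrower promoter window (100 bases before to 50 after the start) the shares in raised genes were 8.92% for kB, 7.3% for the ISRE, 6.09% for AP-1, 7.91% for the TATA box and 0.609% for the ETS motif, against 5.04%, 1.61%, 2.23%, 3.03% and 7.58% of all promoters. The titles give replicate letters that the columns do not carry, so a pairing by letter was not run. Taking consecutive running numbers as a replicate block (6 libraries) gave 4085 higher and 3873 lower. The deviations of libraries with consecutive numbers correlated at 0.31, 0.18 and 0.46, but library 4 correlated better with library 2 (0.42), so this pairing is a hint from the data and not from the design. In library 8, which has the highest floor of the 6 in CPM, a gene under 0.233 CPM has fewer than 3 counts. This floor covers counting noise only, and libraries of the same group differed by more than that.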
